A study of Mus musculus with 12 samples.

Results

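The genes described here are the axon guidance ligands and receptors, measured by bulk RNA-seq in lymph nodes of mice. They were chosen by symbol alone: semaphorins of classes 3 to 7, plexins, the neuropilins Nrp1 and Nrp2, Eph receptors, ephrins, Slit1 to Slit3, Robo1 to Robo4, Ntn1, Ntn4, Dcc, and every symbol that begins with Unc5. The rule found 72 of the 55487 genes in the counts table, and 61 of these 72 had enough counts to be tested, among 17301 tested genes in all. Because it works by spelling, the rule also takes Unc50, a Golgi membrane protein, Unc5cl, a death domain protein related to the Unc5 receptors, and the antisense transcripts Plxna4os1, Plxna4os2 and Plxna4os3. None of these 5 is a classical guidance ligand or receptor.

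The study crossed a tumour with the state of the pain-sensing (nociceptive) nerves that supply the draining lymph node. T NDE mice carried B16F10 mouse melanoma cells, injected into the tongue, and had those nerves inhibited. NT NDE mice had the nerves inhibited and no tumour, T NC mice had the tumour with the nerves left as they were, and NT NC mice had neither. Each of the 4 groups held 3 libraries, labelled as independent biological repetitions, 12 in all. The strain, sex and age of the mice, the means and timing of the nerve inhibition, and whether a library holds 1 node or several were not given in the sources used here. P values therefore measure the spread between these libraries.

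Axon guidance cues steer growing nerve fibres and are read by receptors on the growth cone. Secreted class 3 semaphorins bind neuropilins, which pair with plexins, whereas the membrane-bound semaphorins of the other classes mostly bind plexins directly. Ephrins and Eph receptors signal in both directions between touching cells, Slits act through Robo receptors, and netrins through Dcc and Unc5 receptors. The same molecules work outside the nervous system: several are known from lymphocytes and dendritic cells as immune semaphorins, and others from blood and lymphatic endothelium.

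Totals ran from 16862953 counts in T NC replicate 3 to 24467873 counts in T NC replicate 1. Lymphocyte genes were abundant in all libraries, with 10 of 10 markers tested and a sum from 5140 to 7333 CPM (counts scaled to a common library size with TMM factors). Cell bodies of nociceptors lie outside the node, and their channel gene Scn10a and neurofilament gene Nefl had 0 counts in all 12 libraries. Transcripts of salivary gland, a neighbouring tissue, were abundant in 3 libraries. In T NDE replicate 3, Bpifa2, a secreted salivary protein, stood at 26332 CPM. NT NC replicate 3 had 20026 CPM of it, and NT NC replicate 2 had 998 CPM. The other 9 libraries held 6.60 to 38.0 CPM of it. These 3 are called the salivary libraries below, and the members' counts in each comparison are also given without them. Without them NT NC is represented by replicate 1 alone, which is assumed to vary like the other groups. In bulk RNA, fewer cells of a type and less RNA per cell cannot be told apart.

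Start sites of 4 genes on which the results turn are shown first: Sema4d, the most abundant member, Sema5b, which stood out in 2 libraries, Robo2, whose values moved opposite ways in T and NT nodes, and Nrp2, which passed a test once the salivary libraries were left out. Each sequence runs 5′ to 3′ on the gene's strand from 250 bases before to 50 bases after an annotated start in RefSeq (GRCm38.p6). Capitals mark the GC box, GGGCGG or its reverse complement CCGCCC, and overlapping matches are merged.
Sema4d, chr13:51739397-51739696, minus strand: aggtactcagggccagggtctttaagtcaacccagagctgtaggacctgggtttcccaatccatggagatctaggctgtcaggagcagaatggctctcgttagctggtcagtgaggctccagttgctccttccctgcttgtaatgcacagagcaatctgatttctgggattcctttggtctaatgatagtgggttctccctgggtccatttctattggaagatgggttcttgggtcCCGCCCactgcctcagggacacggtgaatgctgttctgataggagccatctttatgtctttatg
Sema5b, chr16:35541112-35541411, plus strand: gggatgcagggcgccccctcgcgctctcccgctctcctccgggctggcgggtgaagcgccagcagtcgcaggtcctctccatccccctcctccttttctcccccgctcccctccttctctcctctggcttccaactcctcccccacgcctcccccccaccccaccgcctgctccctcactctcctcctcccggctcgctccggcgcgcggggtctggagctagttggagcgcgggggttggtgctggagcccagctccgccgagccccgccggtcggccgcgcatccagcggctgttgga
Robo2, chr16:74411776-74412075, minus strand: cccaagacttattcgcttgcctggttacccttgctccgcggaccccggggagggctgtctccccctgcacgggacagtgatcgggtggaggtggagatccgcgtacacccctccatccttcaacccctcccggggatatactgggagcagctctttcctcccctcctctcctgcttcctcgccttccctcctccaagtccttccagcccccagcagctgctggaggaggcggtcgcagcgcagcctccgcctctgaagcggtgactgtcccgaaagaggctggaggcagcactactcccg
Nrp2, chr1:62703067-62703366, plus strand: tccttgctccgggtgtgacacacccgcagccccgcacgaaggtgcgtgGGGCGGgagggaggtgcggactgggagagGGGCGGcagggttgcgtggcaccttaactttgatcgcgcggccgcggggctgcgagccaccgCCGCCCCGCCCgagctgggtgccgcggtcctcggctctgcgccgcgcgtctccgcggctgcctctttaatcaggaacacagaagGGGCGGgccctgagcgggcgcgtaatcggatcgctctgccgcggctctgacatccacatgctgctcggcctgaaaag
The Nrp2 window held 5 GC boxes, 37 CpG dinucleotides and 70.7% G and C, and the Sema4d window 1 GC box, 3 CpG dinucleotides and 51.0% G and C. The Sema5b window, at 73.0% G and C with 27 CpG dinucleotides, and the Robo2 window, at 65.0% with 17, held no GC box. RefSeq lists 3 start windows each for Sema4d and Robo2, of which 1 is printed. All 3 Sema4d windows lie inside the GENCODE M21 gene, whose 5′ end is at 51793747. No window at that end was available. The other Sema4d windows held 56.0% and 52.0% G and C and the other Robo2 windows 45.0% and 53.3%, with no GC box in any of them. Start windows were found for 52 of the 61 tested members, 67 windows in all, and were rich in G and C. Their median was 64.7% G and C with 20 CpG dinucleotides, against 52.7% and 7 over all 32851 windows of the table. A GC box on either strand was found in 68.7% of the members' windows and in 35.7% of all windows. The TATA box, TATAAA or its reverse complement TTTATA, was found in 2.99% and 13.6%. These are counts of letters in a window and not of bound sites.

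Levels differed over several orders of magnitude, and semaphorins of classes 4 to 7 held the largest share. Compared per length, as RPKM (CPM per kilobase of merged exon), this family took 42.0% of the summed level of the 72 members. Plexins took 23.3%, the netrin and Unc5 group 12.3% (most of it Unc50), Eph receptors 5.52%, ephrins 4.88%, neuropilins 4.49%, class 3 semaphorins 4.27% and Slits with Robos 3.17%. Sema4d alone made up 12.2% of the sum, and its level was above that of 92.5% of all tested genes. The plot of levels by family shows the 61 tested members in every library.

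**Figure D1:**
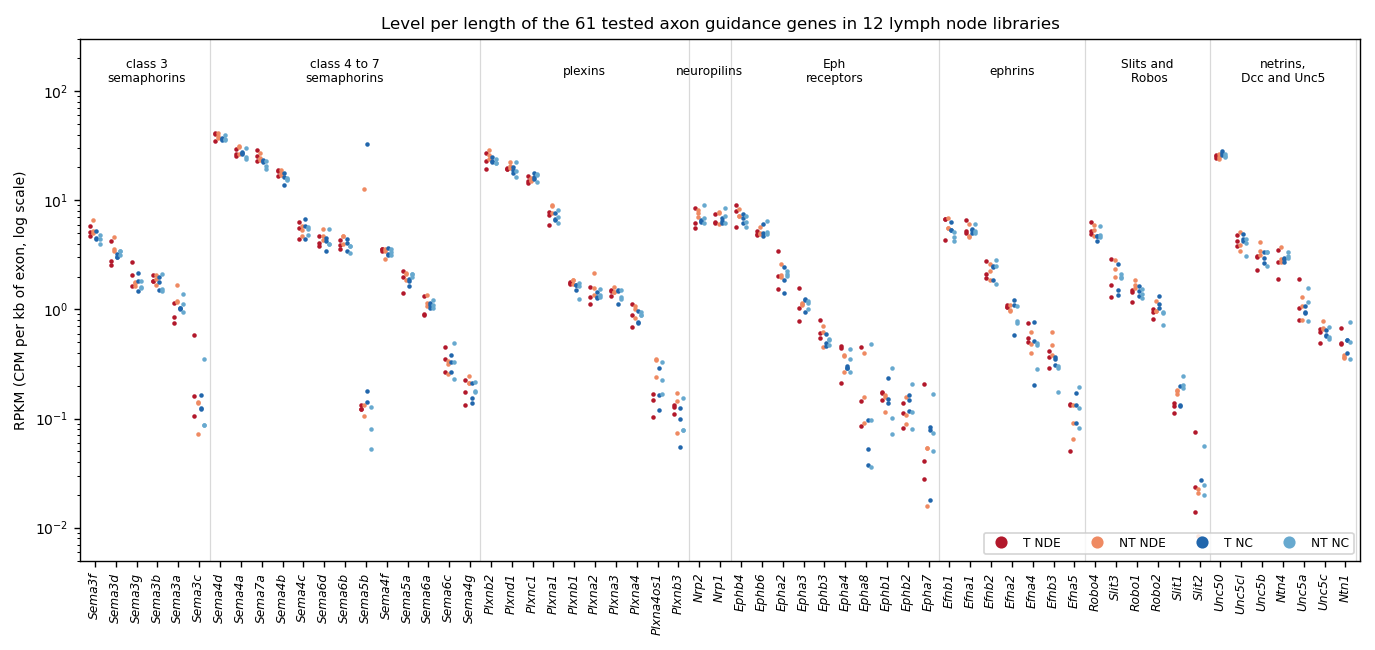
RPKM on a log scale (y axis) of the 61 tested genes (x axis, by family and falling mean), 1 point per library, coloured by group. Sema4d is the highest gene, at 37.9 RPKM on average, and the 2 Sema5b points far above the rest of that gene are from NT NDE replicate 1 and T NC replicate 2.

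The membrane semaphorins with immune roles led the list. Sema4d, also known as CD100, is a semaphorin of T cells and other lymphocytes that binds Plxnb1 and CD72. It averaged 37.9 ± 2.24 RPKM (SD, n = 12). Sema4d had 312, 316 and 269.8 CPM in T NDE, 316, 286 and 298 CPM in NT NDE, 272, 283 and 282 CPM in T NC and 279, 304 and 275 CPM in NT NC. The 12 values lay within 1.17-fold of each other and the groups overlapped. Sema4a, carried by dendritic cells and B cells, averaged 27.6 ± 2.37 RPKM (SD, n = 12). Sema4a had 144, 139 and 161 CPM in T NDE, 169, 168 and 144 CPM in NT NDE, 147, 149 and 144 CPM in T NC and 162, 129 and 135 CPM in NT NC. Its lowest library was NT NC replicate 2 and its highest NT NDE replicate 1. Sema7a, a lipid-anchored semaphorin that binds integrins and Plxnc1, averaged 23.7 ± 2.65 RPKM (SD, n = 12). Sema7a had 75.2, 95.3 and 84.8 CPM in T NDE, 77.2, 81.2 and 89.7 CPM in NT NDE, 74.5, 77.2 and 75.4 CPM in T NC and 75.5, 63.8 and 67.5 CPM in NT NC. All 3 NT NDE values were above all 3 NT NC values, while the T NDE and T NC values overlapped.

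Among their plexin receptors 3 were abundant, and Plxnb1, a plexin that binds Sema4d, averaged 1.68 RPKM. Plxnb2, a receptor of class 4 semaphorins, averaged 23.8 ± 2.55 RPKM (SD, n = 12). Plxnb2 had 149.7, 178 and 209 CPM in T NDE, 185, 199 and 221 CPM in NT NDE, 193, 172 and 176 CPM in T NC and 184, 168 and 169 CPM in NT NC. T NDE replicate 1 was the lowest library and NT NDE replicate 3 the highest. Plxnd1, best known as the endothelial receptor of Sema3e, averaged 19.7 ± 1.72 RPKM (SD, n = 12). Plxnd1 had 145, 143 and 141 CPM in T NDE, 145, 164 and 152 CPM in NT NDE, 149, 138 and 130.0 CPM in T NC and 163, 119.5 and 136 CPM in NT NC. Its groups overlapped in every comparison. Plxnc1, the plexin that binds Sema7a, averaged 16.0 ± 1.03 RPKM (SD, n = 12). Plxnc1 had 139, 127 and 122 CPM in T NDE, 127, 135 and 129 CPM in NT NDE, 148, 138 and 132 CPM in T NC and 144, 141 and 123 CPM in NT NC. It varied 1.22-fold between the lowest and the highest library. Sema3e, the secreted ligand of Plxnd1, had 9 counts in all 12 libraries together and was not tested.

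Both neuropilins were present at nearly the same level per length. Nrp2, the co-receptor of Sema3f and of the lymphatic growth factor VEGF-C, averaged 7.06 ± 1.05 RPKM (SD, n = 12). Nrp2 had 66.00, 73.8 and 100.2 CPM in T NDE, 82.5, 96.9 and 90.8 CPM in NT NDE, 78.1, 75.7 and 76.9 CPM in T NC and 107, 72.7 and 82.1 CPM in NT NC. The 3 T NC values were close together, and the highest library was NT NC replicate 1. Nrp1, the co-receptor of Sema3a and VEGF-A, averaged 6.93 ± 0.81 RPKM (SD, n = 12). Nrp1 had 60.7, 61.9 and 73.9 CPM in T NDE, 58.8, 77.2 and 74.99 CPM in NT NDE, 66.97, 63.7 and 61.2 CPM in T NC and 82.9, 60.8 and 70.96 CPM in NT NC. Here too NT NC replicate 1 was the highest, and all groups overlapped.

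Secreted class 3 semaphorins were lower. Sema3f, a repellent that acts through Nrp2, led them with 4.99 ± 0.72 RPKM (SD, n = 12). Sema3f had 24.5, 26.5 and 30.4 CPM in T NDE, 27.3, 26.01 and 34.6 CPM in NT NDE, 23.6, 22.9 and 27.1 CPM in T NC and 24.9, 22.8 and 20.7 CPM in NT NC. NT NDE values were all above NT NC values. Sema3d averaged 3.38 ± 0.59 RPKM (SD, n = 12). Sema3d had 21.9, 23.7 and 36.7 CPM in T NDE, 30.5, 29.3 and 39.8 CPM in NT NDE, 26.2, 26.1 and 27.9 CPM in T NC and 29.7, 29.4 and 26.9 CPM in NT NC. Its 2 highest libraries were NT NDE replicate 3 and T NDE replicate 3, its 2 lowest the other T NDE libraries. Sema3g, known from endothelium, averaged 1.84 ± 0.35 RPKM (SD, n = 12). Sema3g had 7.41, 9.43 and 12.4 CPM in T NDE, 7.90, 7.40 and 8.15 CPM in NT NDE, 6.67, 9.84 and 8.35 CPM in T NC and 8.21, 7.29 and 7.12 CPM in NT NC. The salivary library T NDE replicate 3 was the highest. Sema3c, a ligand of both neuropilins, was also highest there, at 4.16 CPM, followed by 2.53 CPM in the salivary library NT NC replicate 3, and it had 0.519 to 1.18 CPM elsewhere.

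Among the receptor tyrosine kinases, Ephb4, a receptor of venous and lymphatic endothelium for Efnb2, averaged 7.08 ± 1.02 RPKM (SD, n = 12). Ephb4 had 26.6, 37.02 and 41.7 CPM in T NDE, 32.99, 33.5 and 38.6 CPM in NT NDE, 31.7, 34.5 and 28.6 CPM in T NC and 33.1, 26.2 and 29.6 CPM in NT NC. T NDE replicate 3 was highest and NT NC replicate 2 lowest. Ephb6, which lacks kinase activity and is found on T cells, averaged 5.24 ± 0.55 RPKM (SD, n = 12). Ephb6 had 18.05, 18.6 and 19.7 CPM in T NDE, 18.4, 21.4 and 18.9 CPM in NT NDE, 17.8, 22.9 and 19.1 CPM in T NC and 24.4, 18.4 and 19.5 CPM in NT NC. Epha2, an Eph receptor of epithelia, averaged 2.15 ± 0.52 RPKM (SD, n = 12). Epha2 had 7.24, 9.53 and 15.9 CPM in T NDE, 9.25, 12.3 and 9.62 CPM in NT NDE, 6.59, 8.64 and 11.5 CPM in T NC and 10.6, 9.84 and 9.44 CPM in NT NC. Its highest library was again T NDE replicate 3. Epha1, Epha5, Epha6 and Epha10 had 104, 55, 7 and 41 counts in all and were not tested. All 55 Epha5 counts were in the salivary libraries. It had 1.74 CPM in T NDE replicate 3, followed by 0.859 CPM in NT NC replicate 3, then 0.0834 CPM in NT NC replicate 2, and 0 in the other 9. Epha7 was likewise highest in T NDE replicate 3, at 2.03 CPM, and in NT NC replicate 3, at 1.67 CPM, against 0.156 to 0.831 CPM elsewhere.

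Of the ephrin ligands, Efnb1 averaged 5.57 ± 0.93 RPKM (SD, n = 12). Efnb1 had 15.03, 23.1 and 23.4 CPM in T NDE, 19.1, 19.3 and 23.96 CPM in NT NDE, 21.9, 18.5 and 18.3 CPM in T NC and 17.6, 16.05 and 14.7 CPM in NT NC. Its 3 NT NC values were all below those of T NC and of NT NDE. Efna1, an Epha2 ligand, averaged 5.36 ± 0.61 RPKM (SD, n = 12). Efna1 had 9.66, 9.13 and 12.1 CPM in T NDE, 8.36, 8.58 and 11.1 CPM in NT NDE, 9.98, 9.70 and 9.12 CPM in T NC and 11.1, 9.17 and 9.60 CPM in NT NC. Efnb2, the arterial and lymphatic partner of Ephb4, averaged 2.28 ± 0.38 RPKM (SD, n = 12). Efnb2 had 13.3, 14.4 and 19.00 CPM in T NDE, 12.8, 17.7 and 15.4 CPM in NT NDE, 12.8, 17.1 and 16.7 CPM in T NC and 19.5, 11.8 and 17.2 CPM in NT NC. The groups overlapped for both. Efna3 had 12 counts and was not tested.

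Robo4, the Robo receptor of endothelium, led its family with 5.13 ± 0.63 RPKM (SD, n = 12). Robo4 had 26.2, 27.8 and 33.7 CPM in T NDE, 25.04, 28.5 and 31.4 CPM in NT NDE, 22.6, 24.9 and 24.9 CPM in T NC and 30.9, 25.6 and 24.5 CPM in NT NC. The 3 T NDE values were above the 3 T NC values. Slit3, a secreted Robo ligand, averaged 2.04 ± 0.54 RPKM (SD, n = 12). Slit3 had 7.95, 10.1 and 17.5 CPM in T NDE, 11.9, 14.2 and 17.2 CPM in NT NDE, 15.8, 8.22 and 9.24 CPM in T NC and 11.9, 12.8 and 11.7 CPM in NT NC. It ranged 2.19-fold, with T NDE replicate 1 lowest and T NDE replicate 3 highest. Robo1 averaged 1.49 ± 0.19 RPKM (SD, n = 12). Robo1 had 19.4, 23.8 and 24.8 CPM in T NDE, 26.1, 30.7 and 27.8 CPM in NT NDE, 27.2, 24.5 and 22.1 CPM in T NC and 25.4, 21.2 and 22.98 CPM in NT NC. NT NDE values were above T NDE and above NT NC values without overlap. Slit2 was low everywhere and highest in salivary libraries, at 1.93 CPM in T NDE replicate 3 and 1.41 CPM in NT NC replicate 3, against 0.118 to 0.693 CPM elsewhere. Robo3, the Robo of commissural neurons, had 46 counts in all and was not tested.

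In the last group, Unc50 averaged 25.8 ± 1.23 RPKM (SD, n = 12). Unc50 had 40.3, 41.3 and 38.4 CPM in T NDE, 37.7, 39.5 and 41.9 CPM in NT NDE, 42.7, 40.9 and 44.8 CPM in T NC and 40.5, 41.9 and 39.5 CPM in NT NC. Its libraries lay within 1.19-fold. Unc5cl averaged 4.21 ± 0.60 RPKM (SD, n = 12). Unc5cl had 12.3, 15.4 and 13.7 CPM in T NDE, 16.6, 11.1 and 12.6 CPM in NT NDE, 13.8, 15.8 and 14.2 CPM in T NC and 14.2, 9.88 and 13.2 CPM in NT NC. Unc5b, the netrin receptor of endothelium, averaged 3.12 ± 0.49 RPKM (SD, n = 12). Unc5b had 14.4, 18.8 and 19.5 CPM in T NDE, 21.5, 19.9 and 26.2 CPM in NT NDE, 21.1, 16.8 and 18.4 CPM in T NC and 21.04, 15.7 and 21.01 CPM in NT NC. All 3 NT NDE values were above the 3 T NDE values. The ligand Ntn4 averaged 2.96 RPKM and Ntn1 0.486 RPKM. Dcc, the attractive netrin receptor of neurons, had 1 count in 12 libraries and Unc5d 6, and neither was tested. The antisense transcripts Plxna4os3 and Plxna4os2 had 3 and 0 counts. A total of 0 allows up to 3 counts over these libraries.

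Most members varied under 2-fold, but as a set they varied somewhat more than all tested genes. The highest library was under 2-fold above the lowest for 39 of 61 tested members (63.9%), against 70.0% of all tested genes. The median range was 1.68-fold for the members and 1.48-fold for all genes, and the median biological coefficient of variation was 0.150 and 0.124. Extremes gathered in a few libraries, as the heat map of members by library shows. T NDE replicate 1 was the lowest library for 17 members (27.9%, against 11.6% of all genes) and the highest for 0. In contrast, T NDE replicate 3 was the highest for 15 members (24.6%, against 13.1% of all genes). NT NDE replicate 2 was the highest for 12 members (19.7%, against 5.90%), and NT NC replicate 2 the lowest for 11 (18%, against 11%).

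Summed markers of lymphatic endothelium and of fibroblastic reticular cells, the stromal cells of the node, were at their ends in the same T NDE libraries. All 8 lymphatic markers were tested and none was at 0. Their sum was 223, 284 and 435 CPM in T NDE, 342, 389 and 377 CPM in NT NDE, 338, 319 and 314 CPM in T NC and 391, 327 and 342 CPM in NT NC. The sum of 10 reticular cell markers was 693, 816 and 1062 CPM in T NDE, 888, 1002 and 1008 CPM in NT NDE, 972, 843 and 890 CPM in T NC and 957, 813 and 849.9 CPM in NT NC. T NDE replicate 1 was thus lowest and T NDE replicate 3 highest for both sums. Single markers differed. Prox1, Lyve1, Stab2, Mmrn1, Pdgfra, Cxcl12 and Ccl19 were highest in T NDE replicate 3. Ccl21a was highest in T NDE replicate 1, at 11.5 CPM. Flt4, Pdpn, Reln, Col1a1, Col1a2, Pdgfrb, Lum, Dpt, Pi16 and Il7 were highest outside T NDE. The part of stromal content in the members' values was not tested.

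**Figure D2:**
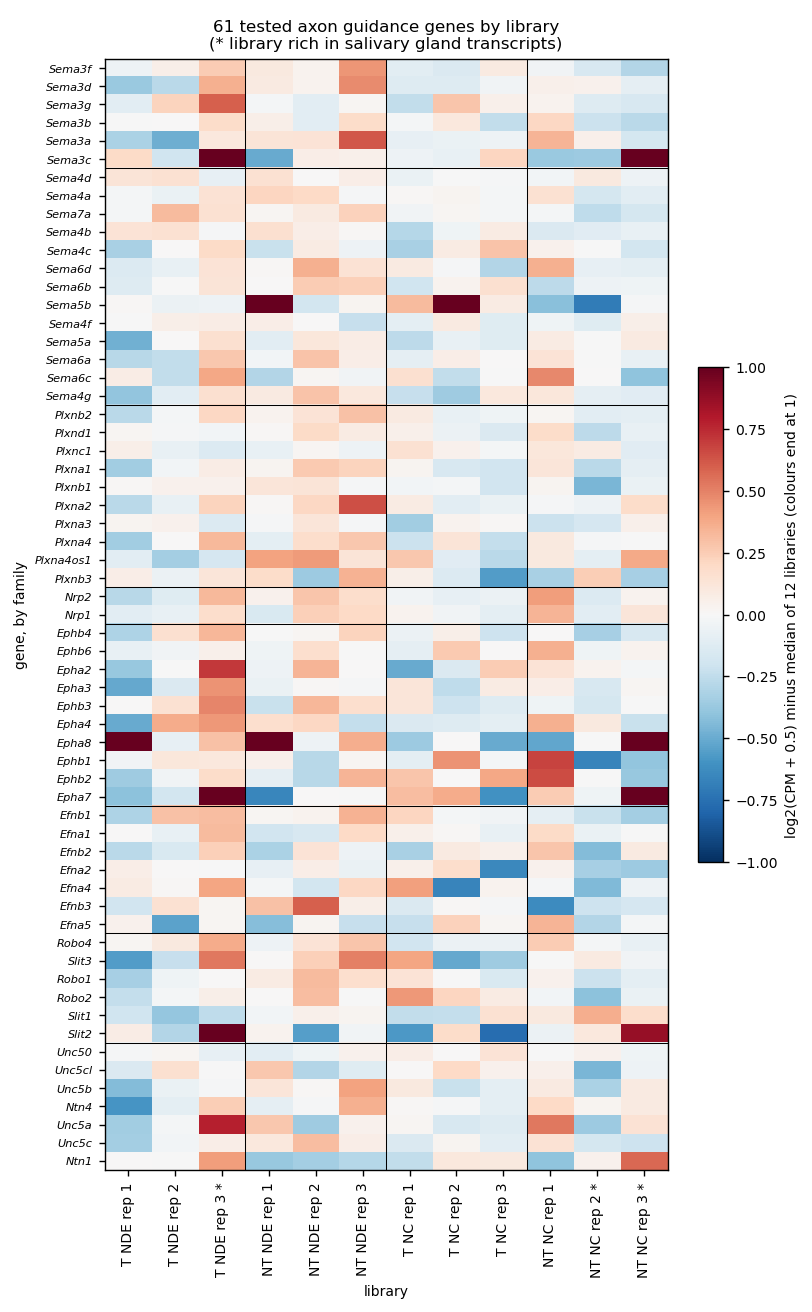
Colour shows log2(CPM + 0.5) minus the gene's median over 12 libraries, for 61 genes (rows, by family) and 12 libraries (columns, by group, with the salivary libraries starred). The column of T NDE replicate 1 is mostly blue and that of T NDE replicate 3 mostly red, and Sema5b is beyond the colour scale in 2 libraries.

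Sema5b, a transmembrane semaphorin with thrombospondin repeats, was the member with the largest difference between libraries. Sema5b had 0.933, 0.862 and 0.870 CPM in T NDE, 90.1, 0.751 and 0.946 CPM in NT NDE, 1.27, 234 and 1.01 CPM in T NC and 0.563, 0.375 and 0.909 CPM in NT NC. Hence 2 libraries of different groups, T NC replicate 2 and NT NDE replicate 1, stood far above the other 10, whose median was 0.890 CPM. They exceeded that median 263-fold and 101-fold. The gene lies on mm10 chromosome 16 from 35541145 to 35664732 on the plus strand (GENCODE M21), and its neighbours were not raised in the same libraries. Pdia5, upstream, was at 0.88 and 1.25 times its median in the other 10 libraries, and Dirc2, downstream, at 1.03 and 1.01 times. Of 17301 tested genes, Sema5b was the only one with both libraries over 2 times the highest of the other 10, and the next, Igfals, reached 1.297 times. A library over 50 times the median was seen for 43 tested genes, of which 37 were highest in one of the 2 libraries richest in salivary transcripts, and Sema5b was the only member among them.

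**Figure D3:**
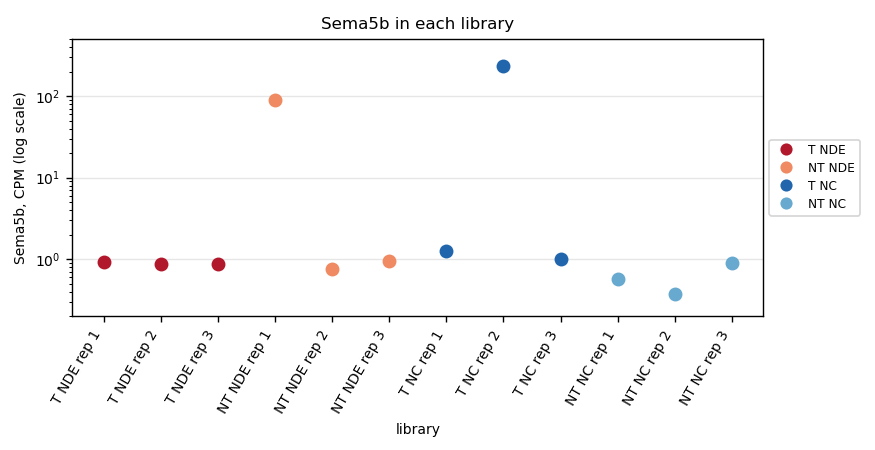
CPM of Sema5b on a log scale (y axis) in each of the 12 libraries (x axis), coloured by group. The points of NT NDE replicate 1 and T NC replicate 2 are at 90.1 and 234 CPM, and the other 10 lie between 0.375 and 1.27 CPM.

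Fold changes of Sema5b between groups rested on these libraries. With all libraries the log2 fold change was 7.02 in T NC against NT NC and -6.47 in T NDE against T NC. Without T NC replicate 2 it was 0.92 and -0.38. The interaction, the difference between the effects of nerve inhibition in T and in NT nodes, was -12.12 with all libraries, -6.03 without T NC replicate 2 and -6.95 without NT NDE replicate 1. None of these passed the edgeR test (adjusted p from 0.629 to 0.986), and DESeq2 gave no p for the gene.

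Nerve inhibition as a whole, NDE against NC averaged over tumour status, gave 0 members past an adjusted p of 0.05 in the edgeR quasi-likelihood test, against 0.0983% of all tested genes. At an unadjusted p under 0.05 there were 4 of 61 members, all higher in NDE (6.56%, against 9.2% of all genes, or 4.46% counting higher ones alone), and 0 members passed in DESeq2 or limma-voom. The number at that unadjusted level was 10 without T NDE replicate 1, 9 when NT NC replicate 1 was left out and 7 without NT NC replicate 3. Of the 61 members, 44 had a log2 fold change above 0 (72.1%), against 53.7% of all genes, with a median of 0.09 against 0.01. That median was 0.02 without T NDE replicate 3. With the 3 salivary libraries left out, NT NC was replicate 1 alone. The median was -0.03, and 39 of 61 members had a log2 fold change below 0. There were then 4 higher and 3 lower members at the unadjusted level (11.5%, against 9.41% of all genes). The plot of fold changes shows how close to 0 most members lay.

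The members with the smallest p were semaphorins. Sema7a averaged 83.9 CPM in NDE and 72.3 CPM in NC, a log2 fold change of 0.22 (SE 0.06, edgeR adjusted p = 0.299). Sema4b, a class 4 semaphorin on the cell membrane, is set out by library because its fold change was next. Sema4b had 105, 106 and 94.7 CPM in T NDE, 107, 100.4 and 96.8 CPM in NT NDE, 78.5, 92.8 and 101 CPM in T NC and 86.4, 88.4 and 91.1 CPM in NT NC. T NC replicate 1 was the lowest of the 12, and the NDE and NC libraries overlapped. Its log2 fold change was 0.18 (SE 0.06, edgeR adjusted p = 0.355), and that of Sema3f 0.26 (SE 0.09, edgeR adjusted p = 0.378).

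In nodes of mice without a tumour, NT NDE against NT NC, 0 members passed in edgeR, DESeq2 or limma-voom, as did 0% of all genes in edgeR. At an unadjusted p under 0.05, 7 members were higher and 0 lower in NT NDE (11.5%, against 10.4% of all genes, or 5.67% counting higher ones alone). They were Sema7a, Sema3f, Efnb3, Robo1, Sema4b, Sema6b and Efnb1. The groups did not overlap for 9 members that were higher and 1 that was lower, where 18.9% of all genes did not overlap. The count at the unadjusted level was 14 without NT NC replicate 1, 3 without NT NDE replicate 2 and 4 without NT NC replicate 2. When all 3 salivary libraries were left out, 2 members were higher (Efnb3 and Sema6b) and 2 lower (Nrp2 and Ephb1) at that level, 6.56% against 7.61% of all genes. The members' median was then -0.01, against 0.11 with all libraries, and NT NC was replicate 1 alone. Log2 fold changes were 0.26 for Sema7a (SE 0.09, edgeR adjusted p = 0.327; 0.13 without the salivary libraries) and 0.37 for Sema3f (SE 0.12, edgeR adjusted p = 0.327). Efnb3, a low ephrin of neural tissue, had 0.93 (SE 0.31, edgeR adjusted p = 0.332). Efnb3 had 0.933, 1.32 and 1.16 CPM in T NDE, 1.51, 1.98 and 1.21 CPM in NT NDE, 0.982, 1.15 and 1.13 CPM in T NC and 0.563, 0.917 and 0.960 CPM in NT NC. Its NT NDE values were all above its NT NC values, at a level of about 1 CPM.

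In tumour-bearing mice, T NDE against T NC, 0 members passed in edgeR, DESeq2 or limma-voom, as did 0% of all genes in edgeR. There were 1 higher and 2 lower at an unadjusted p under 0.05 (4.92%, against 5.83% of all genes). That count was 9 without T NDE replicate 1 and 1 without T NC replicate 1. Robo4 had a log2 fold change of 0.28 (SE 0.12, edgeR adjusted p = 0.840) and Robo2 -0.32 (SE 0.14, edgeR adjusted p = 0.851). The members' median was 0.07 with all libraries and -0.07 without T NDE replicate 3. Without the 3 salivary libraries it was -0.07 too, with 3 members higher and 2 lower at the unadjusted level (8.2%, against 6.13% of all genes).

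**Figure D4:**
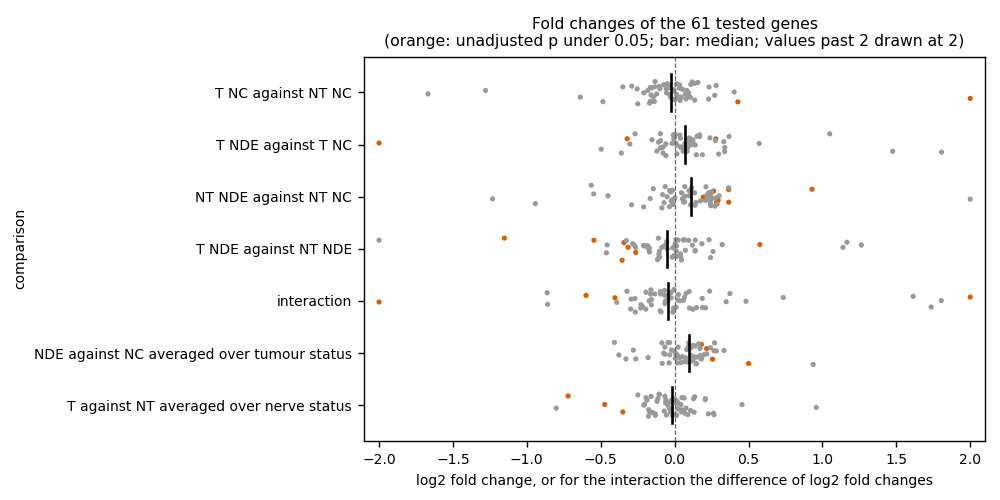
Log2 fold change (x axis) of the 61 tested genes in 7 comparisons (rows), with the median as a bar and values beyond 2 drawn at 2. Orange points have an unadjusted p under 0.05, and no point passed the adjusted test in any row.

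Robo2, a Slit receptor of growing axons on mm10 chromosome 16 from 73891839 to 74411825, was the member with the smallest p for the interaction. Robo2 had 13.9, 16.2 and 17.2 CPM in T NDE, 16.5, 20.4 and 16.3 CPM in NT NDE, 22.4, 19.2 and 17.5 CPM in T NC and 16.1, 12.2 and 15.7 CPM in NT NC. T NDE values lay below all T NC values, and NT NDE values above all NT NC values. Such opposite movement without overlap was seen for 1 of 61 members and for 112 of all tested genes (0.647%). The interaction of Robo2 was -0.60 on the log2 scale (SE 0.20) and did not pass (edgeR adjusted p = 0.633, DESeq2 adjusted p = 0.340). With NC alone, T NC against NT NC, its log2 fold change was 0.43 (SE 0.14, edgeR adjusted p = 0.494). Robo1 had an interaction of -0.40 (SE 0.16, edgeR adjusted p = 0.670), in T NDE against NT NDE a log2 fold change of -0.31 (SE 0.11, edgeR adjusted p = 1.00).

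Over all members the interaction gave 0 past the adjusted threshold in edgeR, DESeq2 and limma-voom, as did 0% of all genes in edgeR. There were 1 higher and 3 lower members at an unadjusted p under 0.05 (6.56%, against 7.11% of all genes). That count was 8 without NT NC replicate 1 and 2 without NT NDE replicate 2. Without the 3 salivary libraries 0 were higher and 3 lower (4.92%, against 5.13% of all genes). In T NC against NT NC, 0 members passed with the same tools (0% of all genes in edgeR), and 2 members, Robo2 and Sema5b, were at an unadjusted p under 0.05 (3.28%, against 7.8% of all genes). The count was 4 without NT NC replicate 1 and 1 without T NDE replicate 2 or NT NC replicate 3. Without the 3 salivary libraries 0 members were higher and 7 lower at that level (11.5%, against 7.07% of all genes, or 2.88% counting lower ones alone). They were Nrp2, Nrp1, Sema6d, Robo4, Plxnd1, Unc5a and Sema3a, and the members' median was -0.14, against -0.03 with all libraries. Among them, Nrp2 had a log2 fold change of -0.47. In this fit, as in the interaction without the salivary libraries, NT NC was replicate 1 alone. That library was the highest of the 12 for Nrp2 and Nrp1, and for 14.8% of the members, against 8.68% of all genes. The 7 lower members therefore rest on a single NT NC library. With all libraries, Efnb1 followed Robo2 and Sema5b in p, with a log2 fold change of 0.28 (edgeR adjusted p = 0.683).

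The tumour comparison with inhibited nerves, T NDE against NT NDE, gave 0 members past the threshold in edgeR, DESeq2 and limma-voom, against 0.00578% of all genes in edgeR. Of the 61, 7 were at an unadjusted p under 0.05 (11.5%, against 3.7% of all genes). Ntn1 was higher in T NDE, and Sema3a, Robo1, Plxna4os1, Unc5b, Plxna1 and Plxna2 were lower. The count was 12 without T NDE replicate 3, 4 without T NDE replicate 1, 3 without NT NDE replicate 2, 2 without NT NDE replicate 3 and 4 without T NC replicate 3. Sema3a, the classical repellent of sensory axons, which signals through Nrp1, had the smallest p. Sema3a had 11.8, 10.4 and 16.1 CPM in T NDE, 16.4, 16.5 and 23.2 CPM in NT NDE, 14.1, 14.2 and 14.4 CPM in T NC and 19.02, 15.4 and 13.1 CPM in NT NC. T NDE values were all below NT NDE values, with the salivary library T NDE replicate 3 nearest to them. Its log2 fold change was -0.55 (SE 0.18, edgeR adjusted p = 1.00). Plxna4os1 was antisense to Plxna4 and low, and without a stated strand setting its reads cannot be told from those of Plxna4. Plxna4os1 had 0.329, 0.203 and 0.290 CPM in T NDE, 0.675, 0.697 and 0.473 CPM in NT NDE, 0.573, 0.323 and 0.237 CPM in T NC and 0.450, 0.333 and 0.657 CPM in NT NC. Its log2 fold change was -1.15 (SE 0.47, edgeR adjusted p = 1.00).

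Averaged over nerve status, T against NT, 0 members passed in edgeR, DESeq2 or limma-voom, as did 0% of all genes in edgeR. At an unadjusted p under 0.05 there were 3 members, Sema3a, Slit1 and Plxna4os1, all lower in T (4.92%, against 4.5% of all genes, or 2.24% counting lower ones alone). The count was 9 without T NDE replicate 3, 5 without T NDE replicate 1 or NT NC replicate 2, and 1 without T NDE replicate 2, NT NDE replicate 2, NT NDE replicate 3 or T NC replicate 2. Sema3a had a log2 fold change of -0.35 (SE 0.13, edgeR adjusted p = 0.992). Slit1, a Robo ligand of the nervous system, had -0.47 (SE 0.21, edgeR adjusted p = 0.992). Slit1 had 0.823, 0.659 and 0.774 CPM in T NDE, 0.987, 1.07 and 1.05 CPM in NT NDE, 0.777, 0.785 and 1.18 CPM in T NC and 1.13, 1.46 and 1.21 CPM in NT NC. T and NT values overlapped.

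The comparison was repeated without the 3 salivary libraries. The 9 remaining libraries are 5 of T and 4 of NT nodes, with NT NC replicate 1 the highest of them for Nrp2. The contrast averages group means, so NT NC replicate 1 alone stands for NT NC in it. It is not a comparison of 5 with 4 equally weighted libraries, and its result leans on that library. Nrp2 had 66.0 to 78.1 CPM (mean 74.1) in the 5 T libraries and 82.5 to 107.0 CPM (mean 94.3) in the 4 NT libraries. Its log2 fold change was -0.41 (SE 0.06, edgeR adjusted p = 0.00796), against -0.18 (edgeR adjusted p = 0.992) with all libraries. With NT NC replicate 2 kept and the other 2 salivary libraries left out, it was -0.29 and did not pass (edgeR adjusted p = 0.490). Nrp2 was the 1 of 61 members that passed, where 0.363% of all genes did. At an unadjusted p under 0.05 there were 1 higher member, Ntn1, and 15 lower ones (26.2%, against 8.92% of all genes). With all libraries, the Nrp2 value was -0.27 without T NDE replicate 3 and -0.09 without NT NC replicate 1.

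Those 15 lower members were Nrp2, Nrp1, Sema3a, Sema3d, Sema4a, Sema5a, Sema6a, Sema6d, Plxna1, Plxnd1, Robo4, Ntn4, Unc5a, Unc5b and Unc5c, receptors and ligands alike. Sema3a came second, with 10.4 to 14.4 CPM in the 5 T libraries and 16.4 to 23.2 CPM in the 4 NT libraries, a log2 fold change of -0.57 (SE 0.12, edgeR adjusted p = 0.0615). The members' median was -0.18, against 0.01 for all genes. The summed lymphatic endothelium markers separated the same libraries in the same direction, at 223 to 338 CPM in T and 342 to 391 CPM in NT. So did the sum of the 14 markers of dendritic cells and macrophages, at 1106 to 1339 CPM in T and 1630 to 1685 CPM in NT. The sums of the 10 blood endothelium markers overlapped, at 854 to 943 CPM in T and 921 to 1114 CPM in NT. The part of lymphatic, dendritic cell or macrophage content in the values of Nrp2 and the other members was not tested. In T NDE against NT NDE within these 9 libraries, 14 of 61 members were lower and 0 higher at an unadjusted p under 0.05 (23.0%, against 6.84% of all genes, or 4.54% counting lower ones alone), and 0 passed, against 0.154% of all genes (Sema3a -0.73, edgeR adjusted p = 0.0999; Nrp2 -0.35, edgeR adjusted p = 0.115).

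**Figure D5:**
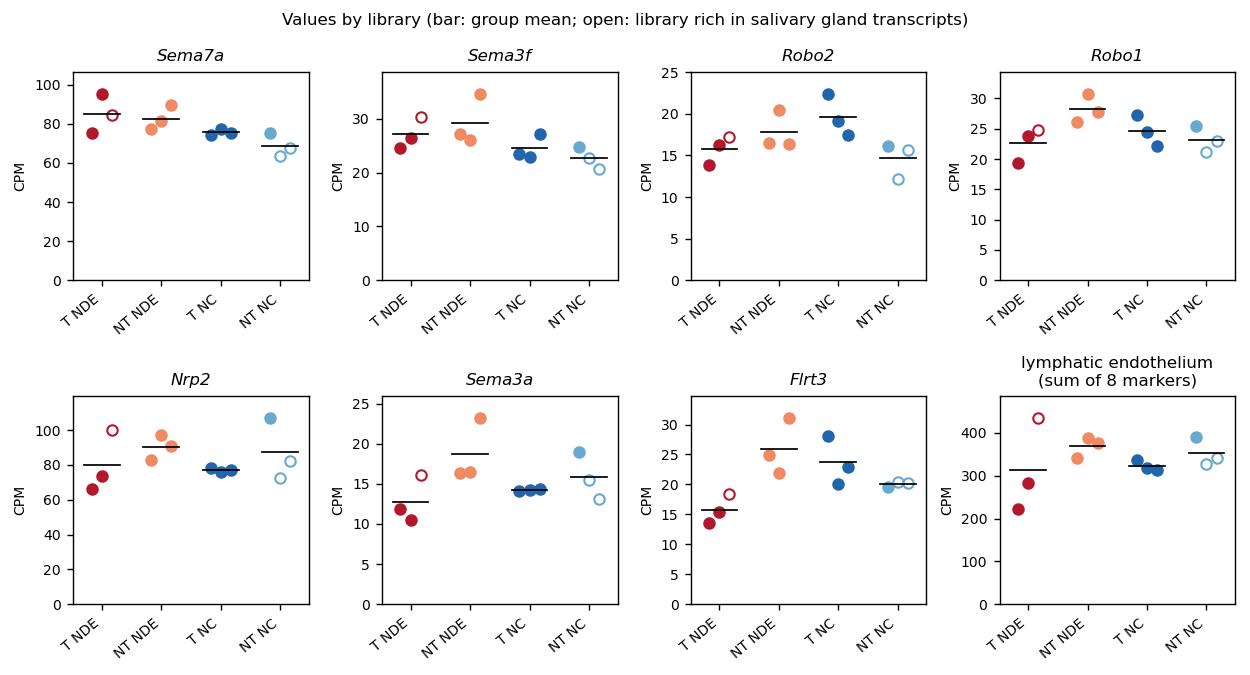
CPM (y axis) in each library by group for 6 of the members, the Unc5 partner Flrt3 and the sum of 8 lymphatic endothelium markers. Bars are group means and open circles are salivary libraries, and every Robo2 value of T NDE is below those of T NC, while every NT NDE value is above those of NT NC.

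Partners and downstream genes of the pathway were read from a separate list of 74 other axon guidance genes, of which 69 were tested. In edgeR 0 of the 69 passed in any of the 7 comparisons, with 2 to 6 of them at an unadjusted p under 0.05. That was 2.9% to 8.7% of the 69, against 3.7% to 10.4% of all genes. The smallest p belonged to Flrt3, a membrane protein that binds Unc5 receptors and Robo1. Flrt3 had 13.5, 15.5 and 18.4 CPM in T NDE, 24.99, 21.9 and 31.1 CPM in NT NDE, 28.1, 20.1 and 22.97 CPM in T NC and 19.6, 20.5 and 20.3 CPM in NT NC. T NDE values were below all other groups. The log2 fold change of Flrt3 was -0.72 in T NDE against NT NDE (SE 0.15, edgeR adjusted p = 1.00) and -0.59 in T NDE against T NC (SE 0.15, edgeR adjusted p = 0.583). The interaction was -0.96 (SE 0.21, edgeR adjusted p = 0.501). DESeq2 called the change against NT NDE, -0.71 (adjusted p = 0.0112), and the interaction, -0.95 (adjusted p = 0.0139). Under nerve inhibition, Flrt3 and Rnd1 moved opposite ways in T and NT nodes without overlap, like Robo2. They were 2 of the 69 listed genes tested, where 0.647% of all tested genes moved in this way. Rnd1, a small GTPase that acts on plexins, is given by library for that movement. Rnd1 had 4.66, 5.63 and 5.37 CPM in T NDE, 6.65, 5.63 and 5.89 CPM in NT NDE, 5.65, 7.30 and 9.47 CPM in T NC and 5.29, 4.21 and 3.64 CPM in NT NC. The highest T NDE value and the lowest T NC value of Rnd1, 5.63 and 5.65 CPM, were nearly equal. Its interaction was -0.98 (SE 0.29, edgeR adjusted p = 0.622).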

How the data were processed

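Lymph node RNA of 12 libraries was sequenced after Trizol extraction and Illumina mRNA library preparation, per the labels' protocols. The authors deposited 1 table of raw counts, in whole numbers and without normalization. Per the submitters' processing notes, HISAT2 2.0 and the mm10 build were used. The read counter, annotation, strand setting and treatment of multiply mapped reads were not given in the sources used here, so reads shared by overlapping, antisense or near-identical genes may be divided in a way that was not checked. Library totals were 16862953 to 24467873 counts, which bounds precision for members with few counts.

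Counts were fitted in R 4.3.3 with edgeR 4.0.16 (TMM factors, filterByExpr with a minimum count of 10 and minimum total of 15, robust quasi-likelihood fit over 12 libraries with 1 mean for each group). P values were two-sided and adjusted by the Benjamini-Hochberg method over 17301 genes in each of 7 contrasts, with a threshold of 0.05. With 3 libraries a side, the smallest p of an exact permutation test is 0.1. The script was tested on simulated data. CPM use TMM-scaled totals, and RPKM divide them by merged exon length from GENCODE M21, found for all 72 members. Symbols matched 55141 of 55487 IDs. Alternatives were DESeq2 1.42.0, limma-voom (limma 3.58.1), DESeq2 size factors, no filter, a replicate block and left-out libraries. Members described by library are the 3 highest per family and the 3 smallest p per contrast. The members and lists were chosen with earlier results of these data known. Low members named for their salivary or stromal libraries, and Nrp2, were chosen after their values were seen.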

Additional observations from a re-analysis of the deposited data

Results flagged for a closer look

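Robo2 moved in opposite directions under nerve inhibition in nodes with and without a tumour: every T NDE value was below every T NC value, and every NT NDE value above every NT NC value. The interaction was -0.60 on the log2 scale and did not pass (edgeR adjusted p = 0.633). Over 19 alternative fits it ran from -0.71 to -0.48, with adjusted p from 0.34 to 0.968. Over all genes, 112 of 17301 tested genes (0.647%) moved in this way. Groups of 3 libraries are too small for a test of single outlying libraries.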

How the results depend on the processing

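With DESeq2, limma-voom, DESeq2 size factors, no filter or the replicate block, 0 members passed the adjusted threshold in each of the 7 comparisons, as with all libraries in edgeR. Leaving out each library in turn gave 0 to 0 members in each comparison, while the number at an unadjusted p under 0.05 ran from 1 to 14. Without the 3 salivary libraries, 1 member passed in T against NT averaged over nerve status (Nrp2) and the median of the members there was -0.18. In that fit NT NC was replicate 1 alone. Without only the 2 libraries richest in salivary transcripts, 0 members passed. Medians of the members lay near 0 and changed sign without the 3 salivary libraries in NDE against NC (-0.03), NT NDE against NT NC (-0.01) and T NDE against T NC (-0.07). Without 1 or 2 libraries the sign also changed in T NDE against T NC (-0.07 at the lowest), T NC against NT NC (0.04 at the highest) and T against NT (0.01). Of the single-gene values under an alternative, 719 kept their direction and their side of the threshold and 3 newly passed. Of the counts over all genes, 70 stayed within 1.5 times, 47 were larger and 16 smaller. Flrt3 is the named gene called by DESeq2 and not by edgeR.

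Whether replicate numbers pair the libraries was not stated. Deviations of same-numbered libraries correlated from -0.151 to 0.621 (mean 0.051, over 0.1 in 4 of 18 pairs). Those of differently numbered libraries correlated from -0.504 to 0.415 (mean -0.0254, over 0.1 in 5 of 36 pairs). The 0.621 was between T NDE replicate 3 and NT NC replicate 3, the 2 libraries richest in salivary transcripts. Such correlations cannot exclude a pairing. With the replicate block, 0 members passed in T NC against NT NC and in the other 6 comparisons, and members at an unadjusted p under 0.05 numbered 1 to 7. Fold changes of genes near or under 1 CPM rest on few counts, and 11 members had too few to test.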

Other observations

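Several members with a known place in nerve or epithelial development had their 2 highest values in the libraries richest in salivary transcripts, T NDE replicate 3 and NT NC replicate 3. These were Sema3c, Epha5, Epha7, Slit2 and Ntn1, all with at most 4.80 CPM, and they were picked after their values were seen. Ntn1 reached 4.25 CPM (T NDE replicate 3) and 4.80 CPM (NT NC replicate 3), and its other values were 2.19 to 3.33 CPM. Outside the 3 salivary libraries, Ntn1 ranged from 2.50 to 3.33 CPM in T nodes and from 2.19 to 2.42 CPM in NT nodes. Summed epithelial markers were 64.6 CPM in T NDE replicate 3 and 41.9 CPM in NT NC replicate 3, against 8.503 to 13.8 CPM in the other 10 libraries. Epha8 followed another pattern: it had 2.14, 0.406 and 0.677 CPM in T NDE, 1.87, 0.429 and 0.736 CPM in NT NDE, 0.245, 0.462 and 0.178 CPM in T NC and 0.169, 0.458 and 2.27 CPM in NT NC. The source of these transcripts was not tested.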
